A study of Danio rerio with 21 samples.

Results

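The genes of acetylcholine transmission were examined in RNA from the telencephalon of adult wild-type zebrafish (AB strain) after chronic gamma irradiation. They are 8 of the 32057 genes counted, chosen by gene name: ache, chata, slc18a3a, slc5a7a, chrna7, chrna4b, chrm2a and chrm4a. Exposed fish had been kept for 36 days beside an external caesium source, and all libraries, controls included, were taken at day 36. A library stands for several dissected telencephalons that had been pooled, with the sexes balanced over a condition. Batch 1 held 3 libraries of controls, 3 at 0.5 mGy/h (D05) and 3 at 5 mGy/h (D5). Batch 2 held 6 libraries at 0.05 mGy/h (D005) and 6 of controls. Controls of either batch were unexposed fish of the same strain. The fish came from 2 suppliers, and which of them supplied which batch is not given in the sources used here. Because no batch holds all dose rates, a dose rate was set against the controls labelled with its batch, so that D05 and D5 share the same 3 controls.

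Acetylcholine is made from choline and acetyl-CoA by choline acetyltransferase (chata), is packed into vesicles by the vesicular acetylcholine transporter (slc18a3a), and acts on nicotinic receptors, which are ion channels, and on muscarinic receptors, which couple to G proteins. Acetylcholinesterase (ache) ends the signal by splitting the transmitter, and the choline is taken back into the terminal by the high-affinity choline transporter (slc5a7a). In the telencephalon, acetylcholine is known as a modulator of attention, memory and anxiety-related behavior, and it comes from few neurons, whereas the receptors lie on many of their target cells. The activity of acetylcholinesterase in brain and muscle was also assayed by the study, in females and males apart. Those activities are not analysed here, so that the values below are of transcripts alone.

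Reads on genes numbered 19 to 31.5 M (megareads) in D005 and 23.8 to 40.5 M in the controls of batch 2. In batch 1 they numbered 48.1 to 61.1 M in the controls, 51.9 to 58.3 M in D05 and 45.4 to 71.6 M in D5. Of 12 genes listed as telencephalon markers, 0 were at 0 in any library, while the brainstem markers summed to at most 0.859 CPM (read counts per megaread of the library). A pair of libraries stood apart from their groups. Control batch 2 replicate 6 correlated with the other controls of its batch at r = 0.83 to 0.846 (log2 CPM over the genes tested), where other pairs of libraries within a group reached 0.99, and D5 replicate 1 correlated with its group at 0.924 and 0.936. For several values that rest on these libraries, the value without them is given as well. Levels are CPM scaled by the trimmed mean of M values (TMM) within a batch. They are compared between samples for a given gene, not between genes, since no gene lengths were used. Whether the pools of a group came from separate tanks is not given in the sources used here, so p-values measure the spread between these pools. In bulk RNA, fewer cells of a type and less RNA per cell cannot be told apart.

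None of the acetylcholine genes that could be tested passed edgeR's quasi-likelihood test at any dose rate with all libraries in the fit, with the threshold set at an FDR (false discovery rate by Benjamini-Hochberg, over all genes tested) under 0.05 and a change of at least 1.5-fold. In D005 0 of the 8 genes were called, and in D05 and D5 0 of the 7 that could be tested, since chrm2a was removed there by the filter on low counts. The background was as low, with 0.00514% of all genes tested called in D005, and 0.00469% called in D05, in D5 and in the comparison of D5 with D05, which is 1 gene each. With replicate number as a block, 0 genes were called in D005. An unadjusted p under 0.05 was reached by 0 acetylcholine genes in these 4 comparisons, beside 4.26% of all genes in D005, 2.37% in D05, 5.76% in D5 and 5.24% between D5 and D05. DESeq2 also called 0 of the acetylcholine genes. Their groups overlapped in CPM for all 8 in D005, where 0.853% of all genes did not overlap, and for the 7 between D5 and D05, where 9.31% did not.

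**Figure D1:**
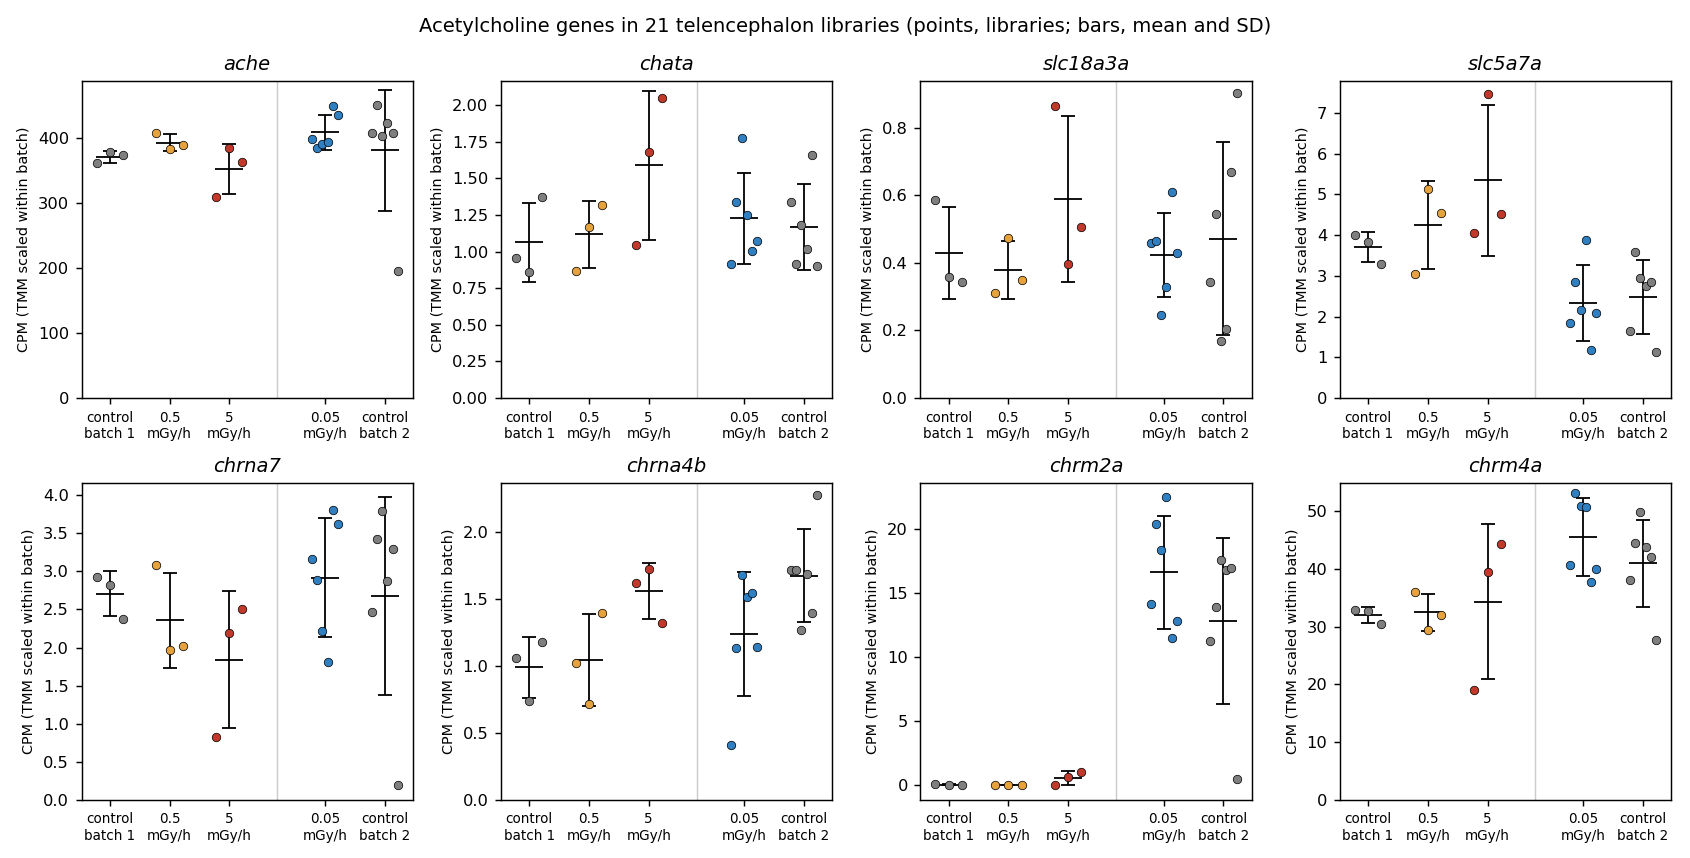
Level of each acetylcholine gene in CPM, scaled within a batch, on axes that include 0. Points are libraries, and bars are the mean and SD of a group. The 3 groups of batch 1 stand left of the grey line and those of batch 2 right of it, and chrm2a lies between 0 and 1.04 CPM in batch 1 and between 11.3 and 22.5 CPM in 11 of the 12 libraries of batch 2.

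The transcript of ache, the enzyme that breaks acetylcholine down, had the lowest spread of the 8 in every group of batch 1, with coefficients of variation of 2.48% in controls, 3.23% in D05 and 11% in D5. It also had the most reads of the 8, with 4968 to 28080 per library, so that its counting error was smallest. The part of counting error in the spread was not tested. In the controls of batch 1 ache stood at 360, 378 and 373 CPM, in D05 at 406, 382 and 388 CPM, and in D5 at 309, 384 and 363 CPM. All libraries in D05 lay above all controls, while those in D5 overlapped with both of the other groups. In D05 ache was the only acetylcholine gene whose groups did not overlap, against a background of 11.1% of all genes tested. The log2 fold change was 0.08 in D05 (standard error 0.0834, edgeR FDR 1) and -0.07 in D5 (standard error 0.0834, edgeR FDR 0.994). The 95% intervals, -0.11 to 0.27 and -0.27 to 0.12 on the log2 scale, do not reach a 1.5-fold change in either direction. Between D5 and D05 the log2 fold change was -0.16 (95% interval -0.35 to 0.03, edgeR FDR 1).

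In D005 ache ranged over 384 to 448 CPM with a median of 396 CPM, against 195 to 450 CPM with a median of 407 CPM in the controls of batch 2. The value of 195 CPM is control replicate 6, and the other 5 controls held 403 to 450 CPM. Over all 12 libraries the log2 fold change was 0.10 (95% interval -0.26 to 0.46, edgeR FDR 0.814), and it was -0.03 (edgeR FDR 0.897) without control replicate 6. For ache alone, the way of counting changed the level. Its reads on the sequenced strand summed to 322682 over the 21 libraries, but to 174878 when strand was ignored, which is 54.2%, while the other 7 genes kept 100% to 101%. Reads on the opposite strand were 0.0765% of the first sum. The share kept was lowest in the libraries that stood apart, with 5668 of 13906 reads in D5 replicate 1 and 2365 of 4968 in control batch 2 replicate 6. Counted without strand, the log2 fold change of ache was 0.14 in D005 and -0.21 in D5, and neither passed the test. Each of these values includes 1 of those libraries.

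The genes of synthesis and vesicular loading were measured on few reads. For chata, choline acetyltransferase, 20 to 123 reads were counted per library. Its levels were 0.96, 0.861 and 1.37 CPM in the controls of batch 1, 0.865, 1.17 and 1.32 CPM in D05 and 1.04, 1.68 and 2.05 CPM in D5. Within batch 1, the 2 libraries with most chata were thus in D5, but the third lay within the range of the controls. In D5 chata averaged 1.59 ± 0.509 CPM, against 1.06 ± 0.271 CPM in the controls (SD, n = 3 each), a difference of 0.58 on the log2 scale (standard error 0.319, edgeR FDR 0.917) that did not pass the test. Without D5 replicate 1 the log2 fold change was 0.80 (edgeR FDR 0.134). The library left out is the lowest of D5 for chata, so that this value is no test of it. In that fit 6.34% of all genes tested were called. In D05 the log2 fold change of chata was 0.07 (edgeR FDR 1). In D005 chata ranged over 0.915 to 1.77 CPM (median 1.16), against 0.902 to 1.66 CPM (median 1.1) in the controls of batch 2, a log2 fold change of 0.06 (95% interval -0.42 to 0.55, edgeR FDR 0.908).

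For slc18a3a, which loads acetylcholine into synaptic vesicles, 4 to 39 reads were counted per library, and its 95% intervals reached past a 1.5-fold change in all 4 comparisons. Its levels were 0.586, 0.357 and 0.343 CPM in the controls of batch 1, 0.311, 0.475 and 0.349 CPM in D05 and 0.866, 0.397 and 0.507 CPM in D5. The groups overlapped. The log2 fold change in D5, 0.45 (95% interval -0.43 to 1.32, edgeR FDR 0.981), was 0.06 without replicate 1, the library at 0.866 CPM. In D005 slc18a3a ranged over 0.246 to 0.611 CPM (median 0.444), against 0.169 to 0.902 CPM (median 0.445) in the controls. The highest control is again replicate 6, and the log2 fold change was -0.16 with it and 0.09 without it.

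The gene slc5a7a encodes the transporter that returns choline to the nerve terminal, the step that limits synthesis of the transmitter. Its levels were 4, 3.82 and 3.3 CPM in the controls of batch 1, 3.05, 5.13 and 4.56 CPM in D05 and 4.06, 7.47 and 4.52 CPM in D5. In D5 all libraries lay above all controls, although the lowest exceeded the highest control by little, and in D05 the groups overlapped. It averaged 5.35 ± 1.85 CPM in D5, against 3.71 ± 0.365 CPM in the controls (SD, n = 3 each). The log2 fold change was 0.53 (95% interval -0.12 to 1.18, edgeR FDR 0.917) and was 0.21 without replicate 2, the library at 7.47 CPM. Without replicate 1 it was 0.69 (edgeR FDR 0.185). Replicate 1 is the lowest library of D5 for slc5a7a, so that this value is no test of the gene. In that fit 6.34% of all genes tested were called. In D005 slc5a7a ranged over 1.19 to 3.89 CPM (median 2.13), against 1.14 to 3.58 CPM (median 2.8) in the controls of batch 2, with a log2 fold change of -0.09 (95% interval -0.78 to 0.59, edgeR FDR 0.902).

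Among the nicotinic receptor genes, chrna7 encodes the alpha7 subunit, known from mammals to form a channel of its own with high permeability for calcium. Its levels were 2.93, 2.82 and 2.37 CPM in the controls of batch 1, 3.08, 1.97 and 2.02 CPM in D05 and 0.821, 2.19 and 2.51 CPM in D5. The library at 0.821 CPM is D5 replicate 1, and the other libraries in D5 overlapped with the controls. With that library the log2 fold change was -0.55 (95% interval -1.45 to 0.35, edgeR FDR 0.963), and without it -0.21 (edgeR FDR 0.653). In batch 2 the same gene ranged over 1.81 to 3.81 CPM (median 3.02) in D005, against 0.196 to 3.8 CPM (median 3.08) in the controls. The value of 0.196 CPM is control replicate 6, where 5 reads were counted. With that control the log2 fold change was 0.12 (95% interval -0.85 to 1.09, edgeR FDR 0.911), and without it -0.12.

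The subunit alpha4, encoded by chrna4b, joins with beta subunits in the high-affinity nicotinic receptors of the brain. For chrna4b 9 to 126 reads were counted per library. Its levels were 1.06, 0.735 and 1.18 CPM in the controls of batch 1, 1.02, 0.712 and 1.4 CPM in D05 and 1.62, 1.72 and 1.32 CPM in D5. In D5 all libraries lay above all controls, and in D05 the groups overlapped. With slc5a7a, it was 1 of 2 acetylcholine genes whose groups did not overlap in D5, against a background of 8.89% of all genes tested. It averaged 1.56 ± 0.209 CPM in D5, against 0.99 ± 0.228 CPM in the controls (SD, n = 3 each). The log2 fold change of 0.65 (standard error 0.301) had the lowest p of the 7 genes at this dose rate (edgeR, unadjusted p = 0.062, FDR 0.873), which did not pass.

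In D005 chrna4b ranged over 0.412 to 1.68 CPM (median 1.33), against 1.27 to 2.27 CPM (median 1.7) in the controls of batch 2. The groups overlapped, with the lowest value in D005 replicate 1 and the highest in control replicate 6. The log2 fold change was -0.43 (95% interval -1.04 to 0.18, edgeR FDR 0.75), -0.26 without the first of these libraries and -0.33 without the second. The difference between the change in D5 and that in D005 was 1.08 on the log2 scale (standard error 0.447, unadjusted p = 0.0268, edgeR FDR 0.879), and did not pass after adjustment. It was 0.96 (edgeR FDR 0.318) without the pair of libraries that stood apart.

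**Figure D2:**
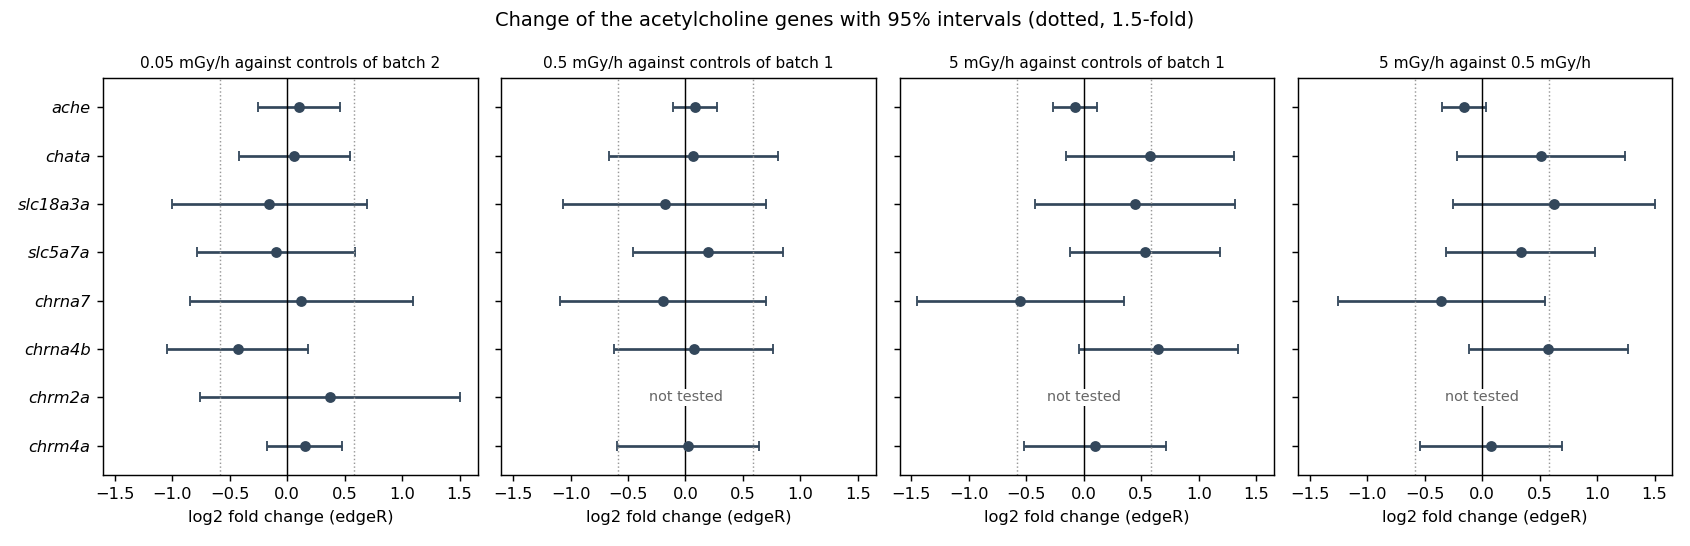
Log2 fold change of each acetylcholine gene in the 4 comparisons, from edgeR, with 95% intervals; dotted lines mark a 1.5-fold change in either direction. All intervals include 0, that of chrna4b at 5 mGy/h reaches from -0.04 to 1.34, and chrm2a was not tested in batch 1.

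The muscarinic receptor gene chrm2a, whose M2 receptor inhibits adenylyl cyclase and in mammals acts as an autoreceptor on cholinergic terminals, differed between the batches by more than any other of the 8. In the controls of batch 1, 5, 1 and 1 reads were counted, in D05 2, 3 and 3 reads, and in D5 0, 50 and 47 reads. A count of 3 corresponds to 0.0419 to 0.066 CPM in these libraries, and 6 of the 9 held 3 reads or fewer. By contrast, 309 to 682 reads were counted in the libraries of D005, and 329 to 634 in 5 of the 6 controls of batch 2, although fewer reads were sequenced in that batch. Only control batch 2 replicate 6, with 12 reads, stood near the libraries of batch 1.

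With all 21 libraries on a common TMM scale, chrm2a lay between 0 and 0.984 CPM in batch 1, between 11.4 and 23.3 CPM in 11 libraries of batch 2, and at 0.491 CPM in control replicate 6 of batch 2. The separation was also present between the unexposed controls of the batches, apart from replicate 6. Among all genes tested, the same 11 libraries lay wholly above or below batch 1 for 10.5%, and 0.939% lay above it with a batch 1 mean under 10% of that of batch 2. On this scale ache was also higher in the 11 libraries, at 403 to 463 CPM, against 297 to 387 CPM in batch 1, but at 203 CPM in control replicate 6. The other 6 acetylcholine genes overlapped between batches. Of the 56 other cholinergic genes described below, 6 also did not overlap between batch 1 and the 11 libraries, a share near the 10.5% of all genes tested. The muscarinic gene chrm3b was distributed like chrm2a, with 1.68 to 3.25 CPM in the 11 libraries of batch 2, 0.0202 to 0.356 CPM in batch 1 and 0.041 CPM in control replicate 6. The nicotinic subunit genes chrna8, chrnb3a and chrnb5a and a copy of NGFR (ENSDARG00000089223) were also higher in the 11 libraries, as for chrna8 with 0.649 to 1.57 CPM, against 0.0213 to 0.297 CPM in batch 1. Control replicate 6 lay with the 11 for chrna8 (0.696 CPM) and chrnb3a (11.8 CPM), but at 0 for chrnb5a. The receptor chaperone gene RIC3 was lower in them, at 0 to 0.274 CPM, against 0.283 to 1.6 CPM in batch 1.

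Within batch 2, chrm2a ranged over 11.5 to 22.5 CPM (median 16.2) in D005, against 0.471 to 17.6 CPM (median 15.3) in the controls. Over all 12 libraries it had a log2 fold change of 0.37 (95% interval -0.76 to 1.5, edgeR FDR 0.795), and of 0.12 (edgeR FDR 0.897) without control replicate 6. Within batch 1, the 97 reads in D5 all came from replicates 2 and 3, against 8 reads over 3 libraries in D05 and 7 over 3 controls. With no count filter, the fitted log2 fold change in D5 was 3.75 (unadjusted p = 0.0137, edgeR FDR 0.909) against the controls and 3.49 (edgeR FDR 0.977) against D05. When D5 replicate 1 was left out, chrm2a was called by edgeR against the controls and against D05. This call is no test of the gene, since the library left out is the one with 0 reads and the gene passed the filter only through the other D5 libraries, where it was high. It was then 1 of 8 acetylcholine genes called, and the background had become 6.34% of all genes tested against the controls and 5.47% against D05.

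The M4 receptor gene chrm4a, which in mammals is abundant in striatal neurons, was measured on 705 to 2881 reads per library. Its levels were 32.9, 32.8 and 30.4 CPM in the controls of batch 1, 35.9, 29.5 and 31.9 CPM in D05 and 19.1, 39.4 and 44.3 CPM in D5. The libraries in D5 lay on both sides of the controls, with replicate 1 below and the others above. The log2 fold change in D5 was 0.10 (standard error 0.269, edgeR FDR 0.999), and 0.38 without replicate 1 (edgeR FDR 0.0471), which is under the 1.5-fold threshold. The library left out is the lowest of D5 for this gene, so that the second value is no test of it. In that fit 6.34% of all genes tested were called. In D05 it was 0.02 (95% interval -0.60 to 0.64, edgeR FDR 1). In D005 chrm4a ranged over 37.7 to 53.2 CPM (median 45.7), against 27.6 to 49.8 CPM (median 42.9) in the controls of batch 2, with a log2 fold change of 0.15 (95% interval -0.17 to 0.48, edgeR FDR 0.763). Without control replicate 6, the lowest of these controls, it was 0.06.

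**Figure D3:**
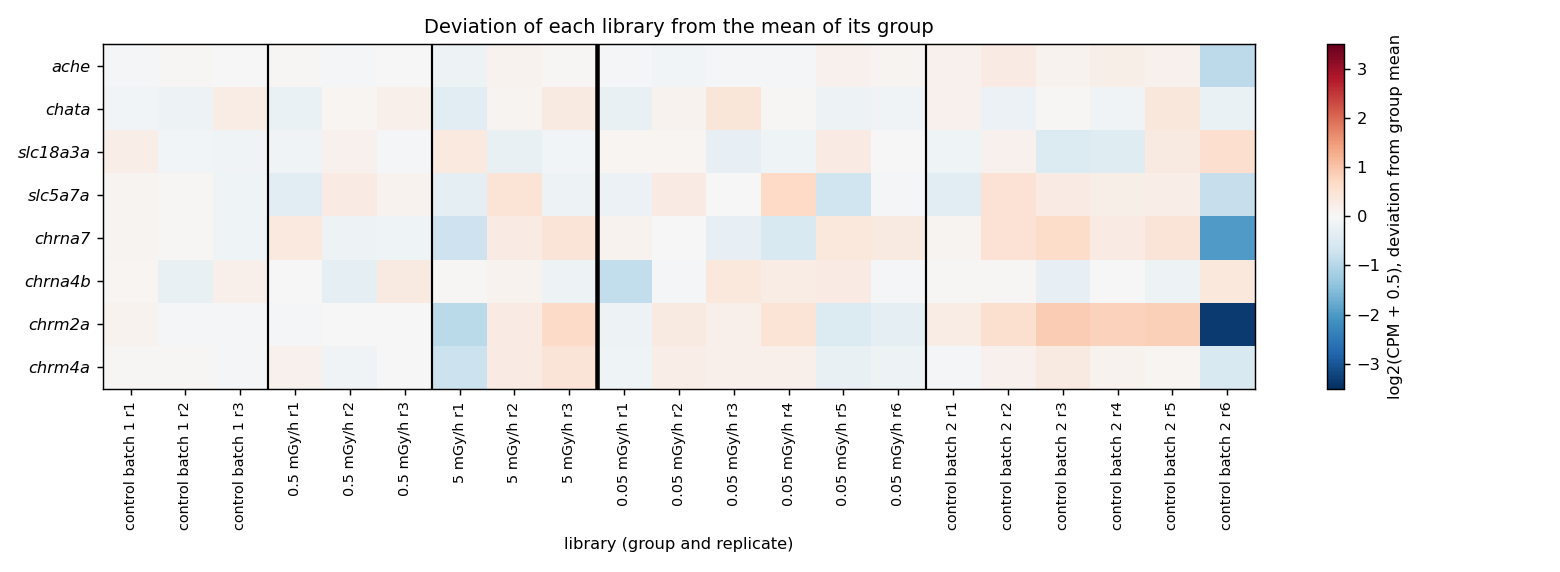
Deviation of log2(CPM + 0.5) of each acetylcholine gene in each library from the mean of its group, from blue (lower) to red (higher). In control batch 2 replicate 6 the deviation is -3.34 for chrm2a, -1.99 for chrna7 and -0.91 for ache, and 5 mGy/h replicate 1 has the next largest negative deviation of chrm2a, -0.95.

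The libraries that stood apart deviated in the same direction for the 8 genes. Control batch 2 replicate 6 and D5 replicate 1 were the lowest of their groups for ache, chata, slc5a7a, chrna7, chrm2a and chrm4a, the highest of their groups for slc18a3a, and above the mean of their groups for chrna4b. The summed telencephalon markers were highest of their batch in these libraries, at 1581 CPM in D5 replicate 1 (other libraries of batch 1, 1232 to 1484 CPM) and at 1883 CPM in control batch 2 replicate 6 (other libraries of batch 2, 955 to 1227 CPM). In the latter, bhlhe22 alone stood at 586 CPM (231 to 298 CPM in the others). There emx1 (7.02 CPM) and EOMES (ENSDARG00000104243, 1.45 CPM) were lowest of the batch. Within the range of the others lay emx3 and NEUROD6 (ENSDARG00000040008), and the remaining telencephalon markers were highest. The neurohormone gene oxt, a marker of the preoptic area, stood at 1255 CPM in control batch 2 replicate 6 and at 40.2 to 134 CPM in the rest of batch 2. The preoptic markers avp, otpa, trh and pmchl were also highest of the batch there. Those listed as OTP, SIM1, hcrt, agrp and NKX2-4 lay within the range of the rest, as SIM1 at 2.94 CPM (2.76 to 7.19 CPM). In D5 replicate 1 oxt stood at 140 CPM, within the 17.4 to 327 CPM of the rest of batch 1. Summed skeletal muscle markers were highest of their batch in both libraries, at 12.4 CPM in control batch 2 replicate 6 and 8.86 CPM in D5 replicate 1. Summed habenula markers were lowest of their batch in both, at 158 CPM. The share of reads that fell on no gene was 39.9% in control batch 2 replicate 6 and 41.7% in D5 replicate 1. Elsewhere it was between 41.5% and 45%, so that D5 replicate 1 lay within the range of the others. The part of these measures in the levels of the acetylcholine genes was not tested.

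Correlations between some acetylcholine genes were lower without these libraries. Over the 21 libraries, deviations from the group means of ache and chrna7 correlated at Pearson r = 0.929, those of ache and chrm2a at 0.887 and those of chrna7 and chrm2a at 0.845. In the 19 libraries left without the pair, the same values were 0.53, -0.681 and -0.39. Others differed less, with chrm2a and chrm4a at 0.757 over all libraries and 0.835 over the 19, and slc5a7a and chrm2a at 0.67 and 0.635. No p is given for these correlations, whose points share depth, batch and dissection.

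Genes with the pattern most like that of each acetylcholine gene were sought among 16734 genes by the same measure. Those of ache were MPC2, PLEKHA8 and SGCB (r = 0.983 to 0.988, and 0.702 to 0.812 in the 19 libraries), and those of chrna7 were nbn, nr3c1 and cacnb2a (0.968 to 0.97, and 0.784 to 0.835). Those of chrm2a were rgs17, SBF1 and HERC2 (0.991, and 0.867 to 0.892), and those of chrm4a were KCNJ10, fam131ba and SEMA6C (0.967 to 0.973, and 0.888 to 0.93). Those of chata were ARSD, gcgrb and col24a1 (0.733 to 0.835, and 0.621 to 0.8), those of slc18a3a were FKBP9, IRF8 and TLK1 (0.86 to 0.864, and 0.753 to 0.855), those of slc5a7a were PRKCQ, GRID2IP and scarb2a (0.83 to 0.86, and 0.753 to 0.839), and those of chrna4b were msrb2, tp53i13 and fbxo44.7 (0.761 to 0.877, and 0.792 to 0.866).

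Over the acetylcholine genes together, changes went in both directions at every dose rate. In D005 5 of 8 had a positive log2 fold change, beside 48.7% of all genes, with a median of 0.08 beside -0.01 over all genes tested and a range from -0.43 for chrna4b to 0.37 for chrm2a. In D05 5 of 7 were positive, beside 53.2% of all genes, with a median of 0.07 beside 0.01 and a range from -0.20 to 0.19. In D5 5 of 7 were positive, beside 55.6%, with a median of 0.45 beside 0.03 and a range from -0.55 to 0.65. Between D5 and D05 5 of 7 were positive, beside 56.3%, with a median of 0.34 beside 0.03, and the values ran from -0.35 for chrna7 to 0.63 for slc18a3a. Without D5 replicate 1 these 2 values were -0.008 for chrna7 and 0.24 for slc18a3a. The difference between the changes in D5 and in D005 was called by edgeR for 0 of the 8 genes, with 0% of all genes called, and at an unadjusted p under 0.05 it was found for chrna4b and chrm2a, beside 4.42% of all genes. For chrm2a it was 3.33 on the log2 scale (standard error 1.31, edgeR FDR 0.879). The filter on low counts had removed chrm2a in batch 1, and it entered this fit through its reads in batch 2. Its p is thus no test of the change in D5. Without the pair of libraries that stood apart, chrm2a and 5.82% of all genes were called, but for chrm2a the library left out in D5 is the one with 0 reads, so that this call is no test of it. Leaving out control batch 2 replicate 6 alone, 0 of the 8 were called in D005, beside 0.041% of all genes. The difference between the changes in D05 and in D005 was called for 0 of the 8 genes, and 0 reached an unadjusted p under 0.05, beside 2.03% of all genes, and without the pair 0 were called, beside 0.00465%. DESeq2 called 0 of the 8 for either difference.

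Markers of tissues near the telencephalon differed between libraries of batch 1. The habenula holds cholinergic neurons in zebrafish. Its 10 markers summed to 174, 186 and 178 CPM in the controls, 197, 212 and 226 CPM in D05 and 158, 291 and 253 CPM in D5, with 0 to 2 of them at 0 in a library (KCTD12 at 0 in all of D5 and the controls). The sums of D05 lay above those of all controls, and those of D5 lay on both sides. Most of each sum was kctd8, at 102 to 174 CPM, and other markers ranked the libraries differently. The marker gng8 stood at 0.196 to 0.212 CPM in the controls, 0.173 CPM in D05 replicate 1 and 0.154 CPM in D5 replicate 3. It reached at least 5.8 CPM in the other exposed libraries of batch 1, among them D5 replicate 1, which had the lowest sum. In all of these libraries with high gng8, gpr151, kiss1 and pou4f1 were also higher than in the rest of batch 1. In batch 2, D005 replicate 4 held 8.87 CPM of gng8, against at most 2.12 CPM in the others. It was highest of that batch for gpr151, kiss1, pou4f1 and the habenula sum (296 CPM), and also for slc5a7a (3.89 CPM) and chrm2a (22.5 CPM). The log2 fold changes of the habenula markers had a median of 0.92 in D05, where 9 of 9 tested were positive, beside 53.2% of all genes. In D5 the median was 0.60, and 8 of 9 were positive, beside 55.6%. Of the 9 that could be tested, 5 had an unadjusted p under 0.05 in D5, beside 5.76% of all genes. In D05 it was 4, beside 2.37%, and edgeR called 0 in either. But pou4f1 (0 to 0.0651 CPM in the controls) and kiss1 (0.0163 to 0.196 CPM) passed the filter only through exposed libraries, where they were high. Several of the markers were also high in the same libraries. The counts of positive changes and of low p are thus no test of these markers. The 11 pineal markers summed to 12.5, 15.9 and 599 CPM in the controls, 9.9 to 452 CPM in D05 and 292 to 637 CPM in D5, with 0 to 2 at 0 in a library. The 13 skeletal muscle markers summed to 5.11 to 6.55 CPM in the controls, 6.67 to 7.91 CPM in D05 and 7.14 to 8.86 CPM in D5, with 0 to 2 at 0 in a library. Of the 8 tested, 4 had an unadjusted p under 0.05 in D5, beside 5.76% of all genes. This count is no test either, since pvalb1 passed the filter only through D5, where it was high. It stood at 0.2189 to 0.4185 CPM there, against 0.0976 to 0.2101 CPM in the controls. The part of these tissues in the values of slc5a7a, chrna4b, chrm2a and colq in D5, and of slc5a7a and chrm2a in D005, was not tested.

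**Figure D4:**
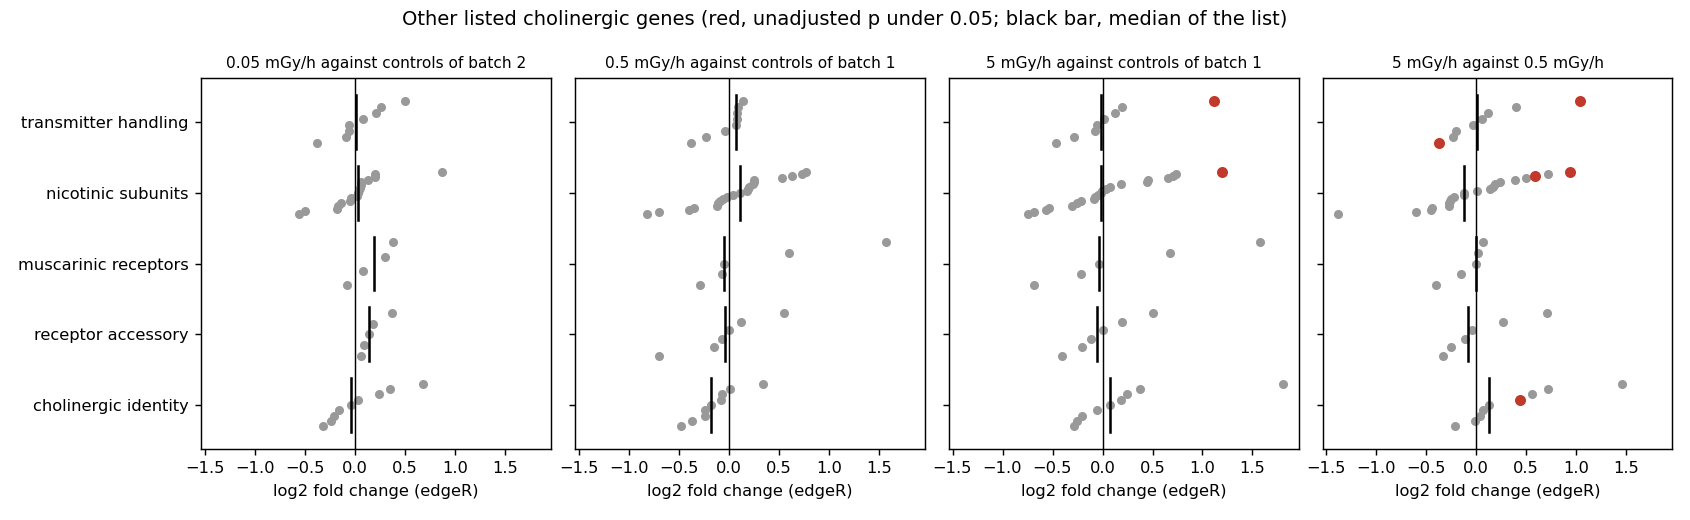
Log2 fold change (edgeR) of the other listed cholinergic genes that could be tested, a point per gene, in 5 lists and 4 comparisons. Red points have an unadjusted p under 0.05, and black bars are the medians of a list. At 0.05 and 0.5 mGy/h 0 genes are red, at 5 mGy/h 2 are, and between 5 and 0.5 mGy/h 5 are.

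A further 56 genes of the cholinergic system were listed: other handling genes of choline and the transmitter, nicotinic subunits, muscarinic receptors, receptor accessory proteins and factors of cholinergic neurons. Of these, 43 were tested in D005 and 49 in D05 and D5, and edgeR called 0 in any comparison. At an unadjusted p under 0.05, 0 were found in D005 and D05 and 2 of 49 in D5, beside 5.76% of all genes in D5. The first of these was colq, which encodes the collagen tail that anchors acetylcholinesterase in the synaptic basal lamina. In batch 1 colq stood at 0.96, 1.14 and 1.67 CPM in the controls, at 1.28, 1.3 and 1.4 CPM in D05 and at 1.84, 4.26 and 2.03 CPM in D5. The libraries in D5 lay above those of both other groups, with a log2 fold change of 1.11 against the controls (standard error 0.362, edgeR FDR 0.807). Against the controls, 4 of the 49 genes had groups that did not overlap, beside 8.89% of all genes tested. Against D05 it was 9 of the 49, beside 9.31%. The other was chrna2a, a nicotinic subunit, at 0.781, 0.588 and 0.588 CPM in the controls and 0.999, 1.07 and 2.45 CPM in D5 (log2 fold change 1.2, edgeR FDR 0.807). In D005 the log2 fold change was -0.09 for colq and -0.50 for chrna2a.

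Between D5 and D05, 5 of the 49 genes had an unadjusted p under 0.05, beside 5.24% of all genes. They were colq (log2 fold change 1.04), chrna2a (0.94), the nicotinic subunit gene chrnb3b (0.58), isl1, a transcription factor of cholinergic neurons (0.44), and slc44a2, a choline transporter-like gene (-0.38), all with an edgeR FDR of 0.919 or more. For the 3 genes of highest mean CPM in each list, none passed the test. The ranges given next for them are over the 3 comparisons with controls (D005, D05 and D5), and leave out that of D5 with D05. The log2 fold changes lay between -0.29 and 0.26 for slc44a2, SLC44A1 and the choline kinase chkb, and between -0.21 and 0.53 for the nicotinic subunits chrnb2, chrna5 and chrnb3a. They lay between -0.40 and 0.37 for tmem35a, a chaperone of nicotinic receptors in mammals, agrn, the agrin that clusters receptors at the muscle endplate, and lypd6b, and between -0.32 and 0.38 for lhx6 (ENSDARG00000006896), LHX8, a factor of forebrain cholinergic neurons in mice, and isl1. The range was wider for the muscarinic genes chrm3a, chrm3b and chrm5a, from -0.69 to 1.58, the highest being chrm3b on 13 reads in the controls of batch 1. The median log2 fold change of all tested genes of these lists was 0.05 in D005, -0.02 in D05 and -0.01 in D5.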

How the data were processed

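Raw counts per Ensembl gene and library, made with STAR on GRCz11, are what the authors deposited; DESeq2 1.22.2 is also named in the submitters' processing notes. The column of the strand that a stranded kit sequences was used here. Genes were matched by name, and 28989 of 32057 IDs had a symbol. The members and lists were chosen with earlier results of these data known. Named beside the members are listed genes called or with an unadjusted p under 0.05, the 3 with the highest mean CPM of a list, and the 3 most alike.

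Counts were tested with edgeR 4.0.16 in R 4.3.3 (quasi-likelihood test after TMM and filterByExpr) in batch 2 and in the 3 groups of batch 1, and differences between dose rates of different batches in a fit of 21 libraries. Standard errors were taken from the F statistic. The code was tested on simulated data. P-values were adjusted by Benjamini-Hochberg. Alternatives were DESeq2 1.42.0, RLE size factors, other count filters, unstranded counts, other sets of libraries, robust dispersion, a replicate block and leaving out libraries, of which leaving out both libraries that stood apart was chosen after seeing the data.

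Libraries of batch 2 with the same replicate number in their labels deviated together from their group means (r = 0.176 to 0.311 in 6 pairs). Libraries of different number were not compared in this way, so whether the numbers pair the libraries is not settled. The block by replicate number was run only as an alternative. The fold changes, intervals and FDR given for D005 are from the fit without it and take no account of a pairing. Depth was 19 to 71.6 M reads on genes, and floors of 3 counts cover counting error only. Acetylcholinesterase activity was not analysed here.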

Additional observations from a re-analysis of the deposited data

Results flagged for a closer look

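In a check for a library far from the others, 3 of 16 sets of values were returned. A set is 1 gene in a group of 6 libraries. Chance returns about 1 in 20 (5%) of independent sets, but these sets share libraries, so the count cannot be judged by that rate. All 3 concern control batch 2 replicate 6. It held 195 CPM of ache, where the other 5 controls held 403 to 450 CPM. It held 0.196 CPM of chrna7, against 2.47 to 3.8 CPM in the others. For chrm2a it held 0.471 CPM, against 11.3 to 17.6 CPM.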

How the results depend on the processing

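No acetylcholine gene was called by edgeR or DESeq2 with all libraries, under any of the alternatives tried. The number of all genes called was less stable. In D005 it was 15 with DESeq2, 2 in a single fit of 21 libraries, 0 with the replicate block and 0 to 8 leaving out a library. In D05 it was 11 with DESeq2, 0 with a minimum of 10 counts, 0 with the 2 groups alone, 0 in the fit of 21 libraries, 0 with the replicate block and 0 to 1 leaving out a library. In D5 it was 88 with DESeq2, 0 with the 2 groups alone, 0 in the fit of 21 libraries, 0 with the replicate block and 0 to 1375 leaving out a library. Between D5 and D05 it was 53 with DESeq2, 0 with a minimum of 10 counts, 0 with the 2 groups alone, 0 in the fit of 21 libraries, 0 with the replicate block and 0 to 1185 leaving out a library. Both high values, and the call of 1 acetylcholine gene (chrm2a, where 0 were called otherwise) in D5, came from leaving out D5 replicate 1, the library with 0 reads of chrm2a, so that the call of chrm2a is no test. The difference between the changes in D5 and in D005 was called for 5 genes with DESeq2 and for 1254 without that library and control batch 2 replicate 6, chrm2a among them, and the difference between D05 and D005 for 3 and for 1. The causes were not tested.

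Some small changes turned sign when a library was left out. In D005 the log2 fold changes ranged over -0.0345 to 0.155 for ache, -0.0684 to 0.192 for chata, -0.319 to 0.0922 for slc18a3a, -0.308 to 0.0441 for slc5a7a and -0.118 to 0.243 for chrna7. In D05 they ranged over -0.0678 to 0.293 for chata, -0.378 to 0.109 for slc18a3a, -0.193 to 0.284 for chrna4b and -0.0611 to 0.0835 for chrm4a. In D5 they ranged over -0.143 to 0.00523 for ache and -0.147 to 0.381 for chrm4a, and between D5 and D05 over -0.167 to 0.365 for chrm4a. Without both libraries that stood apart, the difference between the changes in D5 and in D005 was 0.0534 for ache, -0.0302 for slc18a3a and 0.335 for chrm4a, and that between D05 and D005 was 0.109 for ache and 0.061 for chata. The other alternatives turned no sign of these genes.

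The replicate block changed no call of an acetylcholine gene. In batch 1 same-numbered libraries did not deviate together (r = -0.528 to 0.107), and the block left 0 genes in D05 and D5. Depth limits slc18a3a, chata and chrna4b, with 4 to 39, 20 to 123 and 9 to 126 reads in a library.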
